A study of Homo sapiens with 16 samples.

Results

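The 39 genes described here are interferon-stimulated genes and the genes of RNA and DNA sensing, chosen by their symbols out of 60676 rows of a read count table. All 39 symbols matched a row. They comprise 7 sensors and their adaptors, 6 transcription factors of the interferon response, 8 IFITM and IFI genes, 4 IFIT genes, ISG15 with the ISG15-removing protease USP18, and 12 nucleases, OAS enzymes and other effectors.

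Poly(A) RNA was sequenced from HCT116, a human colorectal carcinoma line. The groups combined an shRNA against NELFE (shNELFE) or a control shRNA (shCTL) with EPZ-5676 and HMBA together, HMBA, EPZ-5676 or DMSO, and each of the 8 groups had 2 libraries. NELFE belongs to the negative elongation factor complex, in which it binds RNA and which holds RNA polymerase II paused near promoters, EPZ-5676 (pinometostat) inhibits the histone methyltransferase DOT1L, and HMBA (hexamethylene bisacetamide) releases P-TEFb, the kinase of elongation, from its inhibitor and induces HEXIM1. Doses and treatment times were not given in the sources used here, and the cells of every group carried an shRNA. The labels do not say whether libraries of a group were separately cultured, so differences between them may be technical. In the main fits 7 of the 8 groups had 1 library. The spread behind each p-value therefore combines what the additive terms left between groups with the difference between the 2 libraries of the remaining group. It may include technical spread.

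Levels come from 9 of the 16 libraries: the 8 numbered 2 and replicate 1 of shNELFE with both compounds. Their totals ran from 13428893 to 17867037 counts, and 3 counts, taken as the floor, corresponded to 0.168 to 0.223 CPM. CPM are counts scaled to a common library total, with edgeR's TMM factors for the levels of genes. The other 7 libraries, all numbered 1, stood apart, with Pearson's r of log2 CPM of 0.735 to 0.805 against the 9, where the 9 had 0.936 to 0.991 among themselves. In the 9, NELFE stood at 12.4 to 21.2 CPM in 5 shNELFE libraries and 66.3 to 79.3 CPM in 4 shCTL libraries, and HEXIM1 at 323 to 375 CPM with HMBA and 65.4 to 81.9 CPM without. In the 7, NELFE stood at 81.6 to 147 CPM in the libraries labelled shNELFE and 101 to 269 CPM in those labelled shCTL, and HEXIM1 at 42.9 to 73.9 CPM whatever the label. The mitochondrial share of counts was 8.87% to 12.2% in the 5 HMBA libraries and 6.12% to 6.90% in the 4 libraries without HMBA, and its part in the results was not tested.

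Cells detect foreign or misplaced nucleic acid with cytoplasmic and endosomal sensors, which signal through adaptors to kinases and to IRF transcription factors. The interferon that follows acts through its receptors and JAK kinases on the complex ISGF3, which contains STAT2 and IRF9 and binds the interferon-stimulated response element (ISRE) in the promoters of effector genes. The effectors bind or cut viral RNA, block viral entry and budding, or modify proteins. Epithelial cancer lines express many of these genes at a low level without added interferon.

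More of these genes were called for HMBA than for shNELFE or EPZ-5676, and the calls were in both directions. An additive edgeR model with terms for shRNA, EPZ-5676 and HMBA tested 35 of the 39 genes. With HMBA, 9 were higher and 11 lower at an adjusted p of at most 0.05, 20 in all or 57.1%, where 63% of all genes tested passed (31% higher and 32% lower), so the share of these genes was near the background. On library totals without scaling, where the median of all genes was -0.24 on the log2 scale, 6 were higher and 17 lower, where 61.9% of all genes passed (18.7% higher and 43.2% lower), and all 20 kept their direction. In the 8 libraries numbered 2, 24 were called, where 70.5% of all genes passed. The 35 had a median log2 fold change of 0.01, and that of all genes was 0.02. The 5 HMBA libraries and the 4 libraries without HMBA did not overlap in CPM for 16 of the 35, against 50.1% of all genes tested. Between libraries or groups that differ in HMBA alone, 11 genes were higher in 4 of 4 pairs, against 35.7% of all genes, and 13 lower, against 36.7%. Among the called genes, the largest rises were IRF7 (6.72-fold), DHX58 (4.35-fold), DDX60 (2.13-fold) and IFI6 (1.98-fold), and the largest falls were IFIT5 (6.96-fold lower), IFIT3 (6.38-fold lower), TLR3 (2.76-fold lower) and SAMD9 (2.51-fold lower).

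**Figure D1:**
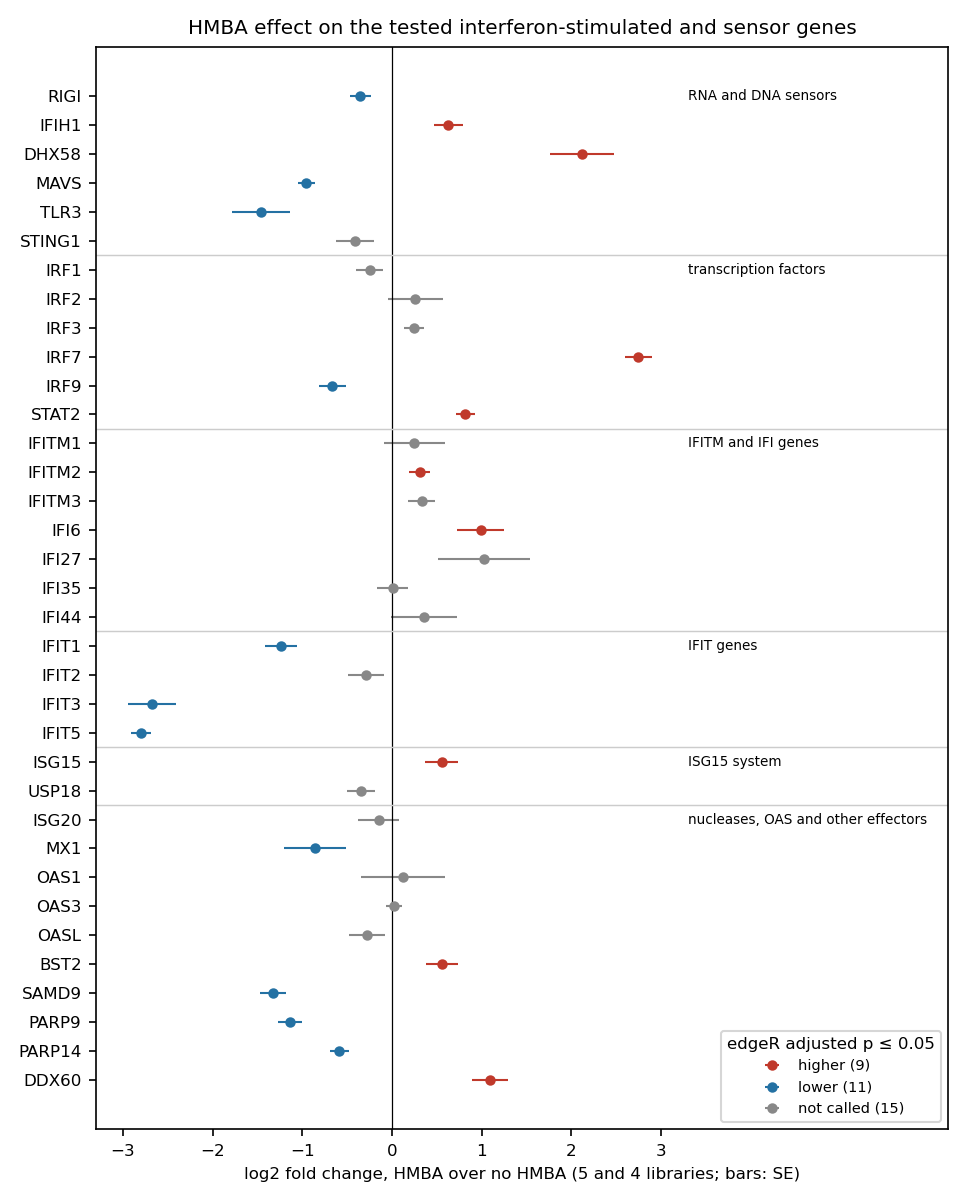
Fitted log2 fold change of HMBA over no HMBA (horizontal axis) for each of the 35 tested genes, grouped by role, with bars of 1 SE and colours for the call at adjusted p of at most 0.05. The 9 higher genes (red) include IRF7 and DHX58, the 11 lower genes (blue) include IFIT5 and IFIT3, and 15 genes (grey) were not called.

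Promoters of genes from both directions carried the ISRE core. The RefSeq promoter table (GRCh38.p14, 250 bases before to 50 after the start) held 35 sequences for 28 of the 39 genes. This core, GAAA and GAAA with any 2 bases between them, or TTTC and TTTC on the other strand, with overlapping matches allowed, occurred in 24 of the 35 sequences, against 3.57% of 35116 promoters. These 24 belong to 20 of the 28 genes, a gene being counted if any of its sequences held a match. By HMBA call, 5 of 6 higher genes with a sequence held a match, 8 of 11 lower genes, 6 of 9 genes that were not called, and 1 of 2 genes that were not tested. The core of the gamma-activated sequence, TTCNNNGAA, occurred in 12 of the 35 sequences, belonging to 11 of the 28 genes, against 7.66% of all promoters. The 2 windows of IFI27 overlap, as do those of IFI44, so the same site can count in 2 sequences. The genes were chosen for their place in the interferon response, so these shares are description only. A match describes letters in a window and does not show binding. Below are 3 promoters of genes that were lower with HMBA and then 3 of genes that were higher, shown because the same core stands in both sets, with ISRE core matches in capitals.
IFIT5, chr10:89414318-89414617, + strand: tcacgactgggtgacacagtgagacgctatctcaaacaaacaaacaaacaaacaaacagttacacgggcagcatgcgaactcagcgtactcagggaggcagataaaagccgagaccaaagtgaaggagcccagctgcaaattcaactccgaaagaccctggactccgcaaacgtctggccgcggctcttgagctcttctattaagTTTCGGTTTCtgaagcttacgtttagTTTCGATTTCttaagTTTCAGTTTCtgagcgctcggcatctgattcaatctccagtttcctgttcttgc
IFIT3, chr10:89327747-89328046, + strand: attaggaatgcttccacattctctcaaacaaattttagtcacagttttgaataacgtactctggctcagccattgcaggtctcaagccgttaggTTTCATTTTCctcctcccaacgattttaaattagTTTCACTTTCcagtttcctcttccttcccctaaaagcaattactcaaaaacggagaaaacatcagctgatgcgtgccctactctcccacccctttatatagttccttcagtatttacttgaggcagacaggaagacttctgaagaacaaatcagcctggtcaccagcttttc
IFIT1, chr10:89392373-89392672, + strand: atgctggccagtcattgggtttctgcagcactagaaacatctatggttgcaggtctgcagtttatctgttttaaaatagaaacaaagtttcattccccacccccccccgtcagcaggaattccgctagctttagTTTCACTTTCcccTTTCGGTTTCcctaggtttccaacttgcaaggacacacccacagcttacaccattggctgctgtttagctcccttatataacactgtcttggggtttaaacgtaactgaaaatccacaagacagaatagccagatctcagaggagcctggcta
IFIH1, chr2:162318635-162318934, - strand: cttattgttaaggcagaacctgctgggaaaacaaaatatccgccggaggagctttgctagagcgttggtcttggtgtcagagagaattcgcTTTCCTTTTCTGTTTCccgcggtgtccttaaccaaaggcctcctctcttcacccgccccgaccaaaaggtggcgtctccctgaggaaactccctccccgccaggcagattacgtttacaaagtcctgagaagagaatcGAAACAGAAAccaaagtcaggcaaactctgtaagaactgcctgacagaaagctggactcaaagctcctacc
IFI6, chr1:27672143-27672442, - strand: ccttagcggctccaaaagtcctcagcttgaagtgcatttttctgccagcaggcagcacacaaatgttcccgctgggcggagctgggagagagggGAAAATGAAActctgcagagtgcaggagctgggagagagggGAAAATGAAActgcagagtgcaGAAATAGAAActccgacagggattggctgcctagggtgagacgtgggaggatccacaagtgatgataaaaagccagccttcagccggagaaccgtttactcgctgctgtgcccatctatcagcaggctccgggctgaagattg
DDX60, chr4:168318703-168319002, - strand: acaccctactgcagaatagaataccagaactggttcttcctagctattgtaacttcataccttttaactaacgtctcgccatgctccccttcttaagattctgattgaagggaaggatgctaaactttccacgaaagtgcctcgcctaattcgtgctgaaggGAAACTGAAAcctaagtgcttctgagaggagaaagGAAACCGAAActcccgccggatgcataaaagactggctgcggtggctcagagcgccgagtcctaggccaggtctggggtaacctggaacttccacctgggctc
The first match began 45 bases before the start in IFIT5, 156 in IFIT3 and 116 in IFIT1, and 159 in IFIH1, 156 in IFI6 and 88 in DDX60. The IFIT3 sequence is the first of its 2 windows along the chromosome.

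Values of single libraries follow in a fixed order. With HMBA they are shNELFE with both compounds (replicates 1 and 2), shCTL with both compounds, shNELFE HMBA and shCTL HMBA. Without HMBA they are shNELFE EPZ-5676, shCTL EPZ-5676, shNELFE DMSO and shCTL DMSO. Gene positions are from GENCODE 29 (GRCh38), in which RIGI is named DDX58. CPM compares a gene between libraries and not genes with each other, since it is not divided by length.

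Among the sensors, 2 rose and 3 fell with HMBA. DHX58 (LGP2, chr17:42101404-42112733), the helicase that lacks the signalling domains of its relatives and modulates them, had 1.09, 1.39, 1.74, 1.29 and 1.48 CPM with HMBA, against 0.124, 0.336, 0.516 and 0.324 CPM without. Every HMBA library lay above every other (log2 fold change 2.12, SE 0.36, adjusted p = 0.000376), at a level of 2 to 27 counts a library. IFIH1 (MDA5, chr2:162267079-162318703), a sensor of long double-stranded RNA, had 9.21, 7.3, 9.71, 7.56 and 11.6 CPM with HMBA, against 4.17, 5.84, 6.3 and 8.94 CPM without. The ranges overlapped through the shCTL DMSO library, yet IFIH1 was higher with HMBA in 4 of 4 pairs of libraries that differ in HMBA alone (log2 fold change 0.63, SE 0.16, adjusted p = 0.00491).

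MAVS (chr20:3846799-3876123), the mitochondrial adaptor through which RIGI and IFIH1 signal, had 69, 79.6, 83.6, 96.4 and 103 CPM with HMBA, against 169, 175, 162 and 178 CPM without. The groups were far apart, and MAVS averaged 86.3 ± 13.4 CPM with HMBA and 171 ± 7.02 CPM without (SD, n = 5 and 4). It was 1.94-fold lower (log2 fold change -0.96, SE 0.09, adjusted p = 6.82e-06). TLR3 (chr4:186069152-186088069), the endosomal receptor for double-stranded RNA, had 0.75, 0.292, 0.772, 0.563 and 0.369 CPM with HMBA, against 1.24, 1.88, 1.26 and 2.01 CPM without. All HMBA libraries were below all others (log2 fold change -1.46, SE 0.32, adjusted p = 0.00223), at 4 to 12 counts a library with HMBA and 20 to 31 without.

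RIGI (RIG-I, chr9:32455705-32526324), the sensor of RNA with a free triphosphate end, had 7.37, 7.16, 8.36, 11.9 and 11.7 CPM with HMBA, against 7.65, 10.9, 15.8 and 17.7 CPM without. It was lower with HMBA in 4 of 4 pairs, with overlapping ranges and low values in EPZ-5676 libraries with and without HMBA (log2 fold change -0.35, SE 0.12, adjusted p = 0.0236). That call was lost when any of 5 libraries was left out, which were shCTL DMSO, shNELFE DMSO, shCTL EPZ-5676, shCTL HMBA and shNELFE HMBA (adjusted p of 0.0503 to 0.145). STING1, the adaptor of DNA sensing, averaged 12 ± 3.73 CPM with HMBA and 16.4 ± 3.01 CPM without (SD, n = 5 and 4) and did not pass (adjusted p = 0.111). It was called lower on library totals without scaling, without the filter on low counts and in the 8 libraries numbered 2. CGAS, the DNA sensor upstream of STING1, had 6 counts over the 5 HMBA libraries and 2 over the 4 others, a ratio of 2.74 with an exact 95% interval of 0.490 to 27.8, and was not tested.

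Of the transcription factors, IRF7 and STAT2 rose and IRF9 fell. IRF7 (chr11:612553-615999), which drives interferon-alpha gene transcription, had 19.5, 22.7, 27.1, 23.4 and 21.3 CPM with HMBA, against 2.43, 3.62, 3.84 and 4.08 CPM without. It had the largest fitted rise of the 35 genes (log2 fold change 2.75, SE 0.16, adjusted p = 1.36e-07), with no overlap, and averaged 22.8 ± 2.81 CPM with HMBA and 3.49 ± 0.735 CPM without (SD, n = 5 and 4). STAT2 (chr12:56341597-56360155), the ISGF3 subunit with the activation domain, had 29.8, 40, 43.6, 36.3 and 44.1 CPM with HMBA, against 19.5, 23.1, 22.2 and 26.3 CPM without. Its lowest HMBA library, shNELFE with both compounds replicate 1, still lay above the highest library without HMBA (log2 fold change 0.82, SE 0.11, adjusted p = 5.53e-05).

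IRF9 (chr14:24161053-24166565), the DNA-binding subunit of ISGF3, had 3.07, 3.94, 4.89, 4.35 and 4.94 CPM with HMBA, against 5.72, 7.38, 5.5 and 10.1 CPM without. The fall was -0.66 ± 0.15 (SE) (adjusted p = 0.00268), with no overlap, but another gene of the annotation, AL136295.5, covers 93.5% of its exon bases on the same strand, so counts of IRF9 are uncertain. IRF3, the factor that sensor kinases phosphorylate first, averaged 50.2 ± 6.66 CPM with HMBA and 42.8 ± 1.99 CPM without (SD, n = 5 and 4, adjusted p = 0.074). IRF1, an activator, averaged 14.8 ± 3.82 CPM with HMBA and 17.5 ± 1.1 CPM without (SD, n = 5 and 4, adjusted p = 0.178). IRF2, known as its antagonist, averaged 1.59 ± 1.02 CPM with HMBA and 1.36 ± 0.313 CPM without (SD, n = 5 and 4, adjusted p = 0.472). None of these 3 factors passed, and each had overlapping groups.

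The IFIT genes lie together on chromosome 10 and encode tetratricopeptide proteins, some of which bind viral RNA ends. With HMBA 3 of the 4 were lower, where 32% of all genes tested were, and no test of that difference was run. IFIT5 (chr10:89414586-89421001) had 4.02, 3.43, 3.92, 5.71 and 4.57 CPM with HMBA, against 29, 28.3, 32.4 and 33.6 CPM without. It showed the largest fall of the 35 genes, -2.80 ± 0.11 (SE) on the log2 scale (adjusted p = 1.69e-08), and averaged 4.33 ± 0.871 CPM with HMBA and 30.8 ± 2.57 CPM without (SD, n = 5 and 4). IFIT3 (chr10:89327894-89340971) had 0.341, 0.657, 0.643, 0.241 and 0.664 CPM with HMBA, against 2.55, 3.42, 3.32 and 4.79 CPM without. Every HMBA library was low, at 3 to 10 counts (log2 fold change -2.67, SE 0.27, adjusted p = 7.91e-06).

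IFIT1 (chr10:89392546-89406486) had 1.57, 1.97, 2.77, 1.69 and 1.92 CPM with HMBA, against 3.36, 6.11, 4.18 and 6.15 CPM without. Its groups did not overlap (log2 fold change -1.24, SE 0.18, adjusted p = 0.00014). IFIT2 had 1.43, 1.9, 2.57, 1.45 and 1.92 CPM with HMBA, against 1.87, 2.48, 2.06 and 3.04 CPM without. Its groups overlapped and it did not pass (log2 fold change -0.29, SE 0.20, adjusted p = 0.224), and AL353751.1 covers 8.70% of its exon bases on the same strand. Whether IFIT2 differs from IFIT3 in its response was not tested.

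**Figure D2:**
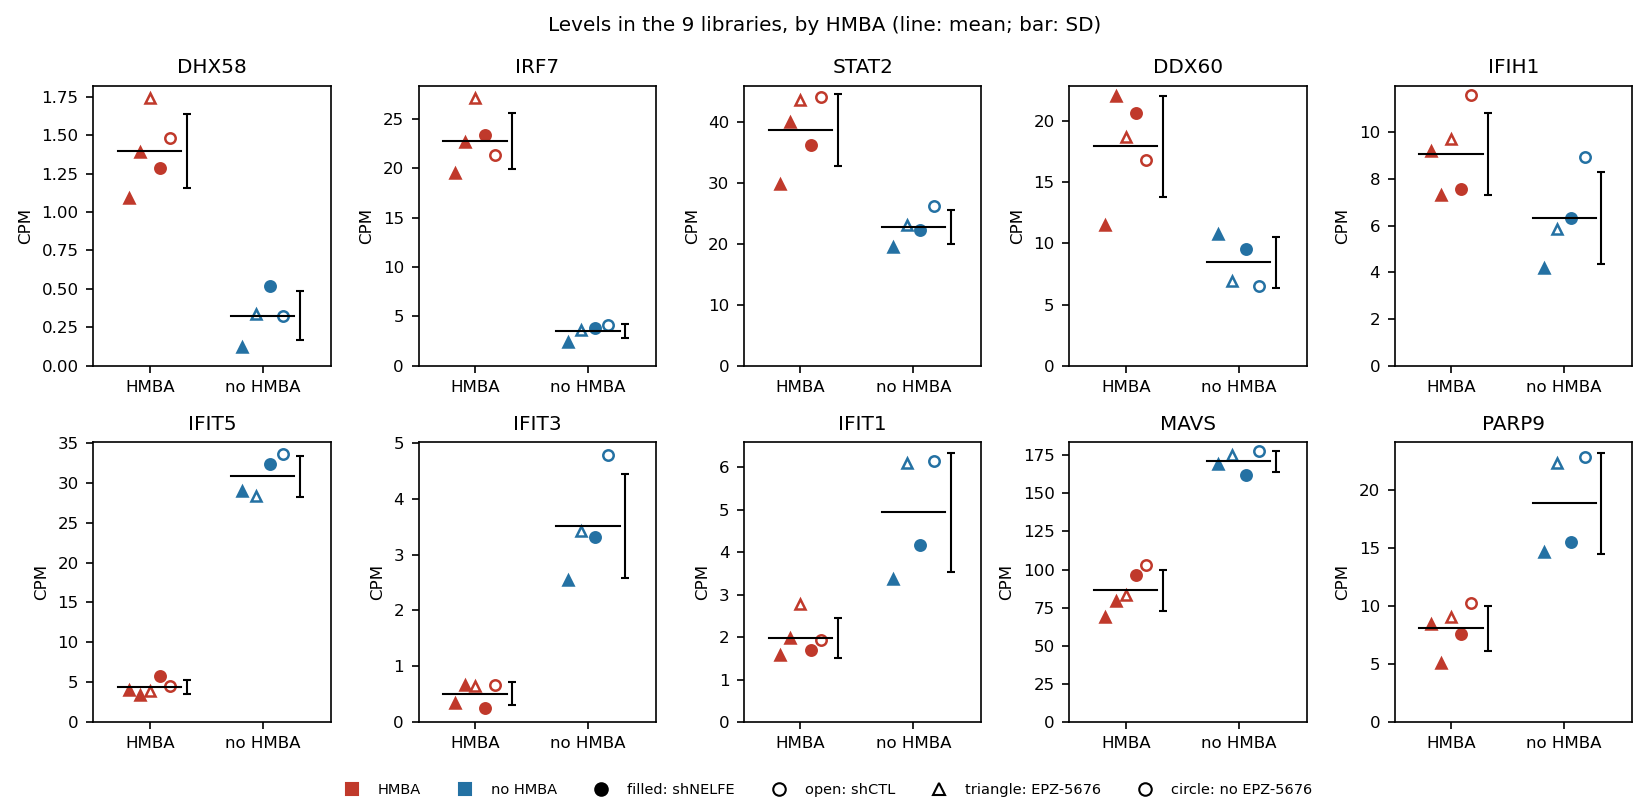
CPM (vertical axes, from 0) of 10 genes in the 5 HMBA libraries (left, red) and the 4 libraries without HMBA (right, blue), with lines at the means and bars of 1 SD. The upper row shows 5 genes that were higher with HMBA and the lower row 5 that were lower, and only IFIH1 of the 10 has overlapping groups.

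Other effectors that fell were SAMD9, PARP9, PARP14 and MX1. SAMD9 (chr7:93099513-93118023), which restricts poxviruses, had 1.91, 1.97, 3.47, 2.66 and 4.5 CPM with HMBA, against 5.41, 8.46, 7.51 and 9.33 CPM without. PARP9 (chr3:122527924-122564577), which acts in a pair with the ubiquitin ligase DTX3L, had 8.46, 5.11, 9.07, 7.56 and 10.3 CPM with HMBA, against 14.7, 22.4, 15.5 and 22.9 CPM without. Neither gene had overlapping groups. The log2 fold changes were -1.33 ± 0.14 (SE) for SAMD9 (adjusted p = 1.37e-05) and -1.14 ± 0.14 (SE) for PARP9 (adjusted p = 3.3e-05).

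PARP14 (chr3:122680618-122730840), an ADP-ribosyltransferase, had 10.9, 13.4, 16.3, 19.8 and 19.3 CPM with HMBA, against 20.1, 21.3, 29.3 and 30.4 CPM without. The groups did not overlap, though the EPZ-5676 libraries without HMBA were close to the HMBA libraries without EPZ-5676 (log2 fold change -0.59, SE 0.11, adjusted p = 0.00061). MX1 (chr21:41420304-41459214), a dynamin-like GTPase, had 0.341, 0.146, 0.514, 0.402 and 0.517 CPM with HMBA, against 0.56, 0.872, 0.745 and 0.777 CPM without. The groups did not overlap, but each library held 2 to 13 counts and the call (log2 fold change -0.86, SE 0.34, adjusted p = 0.0479) was lost in 13 of 16 distinct alternatives, among them each library left out except shCTL DMSO (adjusted p of 0.054 to 0.129).

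The effectors that rose were DDX60, IFI6, BST2, ISG15 and IFITM2. DDX60 (chr4:168216293-168318807), a helicase described as a co-factor of the RIG-I-like receptors, had 11.5, 22.1, 18.7, 20.7 and 16.8 CPM with HMBA, against 10.8, 6.91, 9.57 and 6.54 CPM without. Its lowest HMBA library, shNELFE with both compounds replicate 1, was just above the highest library without (log2 fold change 1.09, SE 0.20, adjusted p = 0.000678). IFI6 (chr1:27666061-27672218), a small membrane protein, had 13.9, 6.94, 6.56, 8.53 and 5.53 CPM with HMBA, against 3.24, 4.03, 4.3 and 4.47 CPM without. The same replicate 1 was the highest here, and the groups did not overlap (log2 fold change 0.99, SE 0.26, adjusted p = 0.0065).

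ISG15 (chr1:1001138-1014540), a ubiquitin-like modifier, had 70.4, 38.8, 38.8, 50.1 and 37.3 CPM with HMBA, against 29.9, 32.7, 29.2 and 33.6 CPM without. BST2 (tetherin, chr19:17402939-17405648), which holds budding virions at the cell surface, had 20.5, 11.3, 11.6, 15.6 and 15.1 CPM with HMBA, against 9.4, 8.79, 10.7 and 11.8 CPM without. Replicate 1 of shNELFE with both compounds was again the highest for both, and BST2 groups overlapped. The log2 fold changes were 0.55 ± 0.18 (SE) for ISG15 (adjusted p = 0.0213) and 0.56 ± 0.18 (SE) for BST2 (adjusted p = 0.0173). Both calls were lost when shNELFE DMSO or shNELFE EPZ-5676 was left out, that of BST2 also without shCTL EPZ-5676, and that of ISG15 also without shNELFE HMBA, and neither passed on library totals without scaling (adjusted p of 0.051 to 0.117 for BST2 and 0.0547 to 0.13 for ISG15). IFITM2 (chr11:307631-315272), which blocks viral fusion in endosomes, had 112, 77.5, 92.5, 94.2 and 99.6 CPM with HMBA, against 80.4, 86.9, 63.9 and 81.4 CPM without. Its groups overlapped (log2 fold change 0.31, SE 0.12, adjusted p = 0.0436), its call was lost in 9 of 16 distinct alternatives, among them each library left out except the 3 with both compounds (adjusted p of 0.0705 to 0.183), and reads of the closely similar IFITM1, IFITM2 and IFITM3 may be split between them.

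The 15 genes that were tested and not called had fitted log2 fold changes of -0.41 (STING1) to 1.02 (IFI27). Some passed in alternatives. Without scaling OAS3, IFIT2, IRF1, OASL, STING1 and USP18 were called, where 61.9% of all genes passed. In the 8 libraries numbered 2, IRF3, OASL, IFITM3, STING1 and USP18 were called, where 70.5% passed. IFITM3 was also called without the filter and by DESeq2, and IFI27, IRF1, IRF3 and IFITM3 with some single libraries left out. IFI27, a mitochondrial protein, averaged 0.785 ± 0.479 CPM with HMBA and 0.359 ± 0.115 CPM without (SD, n = 5 and 4), at 3 to 21 counts a library (adjusted p = 0.106). IFITM3, the restriction factor of late endosomes, averaged 241 ± 51.7 CPM with HMBA and 200 ± 50.2 CPM without (SD, n = 5 and 4, adjusted p = 0.0785). OAS3, a synthetase of the 2-5A that activates RNase L, had nearly equal means of 44.9 ± 5.14 CPM with HMBA and 45.2 ± 5.35 CPM without (SD, n = 5 and 4), but on library totals without scaling it was lower with HMBA (log2 fold change -0.25, adjusted p = 0.0302). The signs of IRF3, IFITM1, IFI35 and OAS1 also turned without scaling. IFITM1, IFI35, IFI44, ISG20, OAS1 and OASL had overlapping groups and fitted log2 fold changes of -0.28 (OASL) to 0.36 (IFI44). USP18 averaged 3.44 ± 0.583 CPM with HMBA and 4.44 ± 0.541 CPM without (SD, n = 5 and 4) and was lower in 4 of 4 pairs without passing (adjusted p = 0.0777), and a similar copy, USP41, may share its reads. Genes on the opposite strand cover 69.9% of the exon bases of XAF1, 23.7% of IFITM3, 20.1% of IRF3 and 15.3% of IRF1, and the counting's strand setting was not given in the sources used here. Per kilobase of exon, IFITM3 had the highest level of the 39 genes, at 199 CPM per kilobase with HMBA and 165 CPM per kilobase without, followed by IFITM2 at 90.1 and 73.9 and ISG15 at 50 and 33.3 CPM per kilobase with HMBA and without.

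Low counts kept 4 genes out of the test. Besides CGAS, OAS2 had 9 counts with HMBA and 3 without (ratio 2.74, exact 95% interval 0.684 to 15.7), and IFI44L had 1 count with HMBA and 3 without (ratio 0.305, interval 0.0058 to 3.79). XAF1 had 0 counts with HMBA and 1 without. No difference was detectable for these at this depth. In bulk RNA, fewer cells that express a gene and less RNA per cell cannot be told apart.

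Genes around these 39 in the pathway were read from further lists, with means ± SD over the 5 HMBA libraries and the 4 libraries without HMBA. Counts of calls in these lists stand beside the 63% of all genes that passed for HMBA (31% higher and 32% lower), and no list was tested against that share. Interferon genes themselves were near 0 in the 9 libraries. None of 10 ligand genes passed the filter on low counts. IFNA1, IFNB1, IFNG, IFNK and IFNW1 had no count in any of the 9, and the 10 together had 2 to 10 counts a library, at 0.241 to 0.730 CPM with HMBA and 0.115 to 0.194 CPM without. Of 10 receptor and JAK-STAT genes, 4 rose and 3 fell with HMBA, 70% of them. JAK1, a kinase of all interferon receptors, averaged 175 ± 17.6 CPM with HMBA and 87.7 ± 8.24 CPM without. All 3 that fell were receptor subunits. IFNLR1, of the lambda receptor, averaged 1.65 ± 0.705 CPM with HMBA and 6.49 ± 1.18 CPM without. IFNGR2, of the gamma receptor, averaged 13.2 ± 2.44 CPM with HMBA and 37.8 ± 2.79 CPM without. IFNAR1, of the alpha and beta receptor, averaged 25.6 ± 2.65 CPM with HMBA and 42.9 ± 3.38 CPM without.

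Of 19 adaptors, kinases and E3 ligases, 14 were tested, of which 1 rose and 10 fell (78.6% in all), with a median log2 fold change of -0.68 against 0.02 over all genes. TICAM1 (TRIF), the adaptor of TLR3, averaged 5.45 ± 0.703 CPM with HMBA and 36.2 ± 5.94 CPM without (log2 fold change -2.69, SE 0.11, adjusted p = 1.92e-08). MYD88, the adaptor of most other Toll-like receptors, averaged 8.19 ± 1.52 CPM with HMBA and 29 ± 0.894 CPM without. TRAF3, a ligase that links MAVS to its kinases, averaged 30.8 ± 3.74 CPM with HMBA and 74.3 ± 11 CPM without. TRIM25, a ubiquitin ligase of the RIG-I pathway, was the one that rose, at 264 ± 33.9 CPM with HMBA and 209 ± 22.1 CPM without.

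Of 15 negative regulators, 7 were higher and 4 lower with HMBA (73.3% in all). SOCS1, an inhibitor of JAK kinases, averaged 10.1 ± 3.84 CPM with HMBA and 1.61 ± 0.338 CPM without (log2 fold change 2.54, SE 0.28, adjusted p = 1.9e-05). PTPN6, a phosphatase, averaged 63.5 ± 9.13 CPM with HMBA and 23.5 ± 1.65 CPM without. DUSP1, another phosphatase, averaged 24.7 ± 8.51 CPM with HMBA and 8.85 ± 0.68 CPM without. These 3 had the largest rises of the list, and NLRX1, RNF125 and ADAR the largest falls. NLRX1, a mitochondrial inhibitor of MAVS signalling, averaged 8.15 ± 1.35 CPM with HMBA and 23.7 ± 5.07 CPM without. RNF125, a ligase that marks RIG-I for degradation, averaged 7.14 ± 1.23 CPM with HMBA and 14 ± 1.05 CPM without. ADAR, the RNA-editing enzyme, averaged 215 ± 19.1 CPM with HMBA and 296 ± 15.7 CPM without. Of 46 further interferon-stimulated genes, 36 were tested, of which 9 rose and 11 fell (55.6% in all), with a median of -0.09. UBA7, the activating enzyme of ISG15, averaged 4.03 ± 0.702 CPM with HMBA and 0.333 ± 0.147 CPM without. HELZ2, a helicase, averaged 110 ± 9.79 CPM with HMBA and 27.2 ± 5.72 CPM without, and CD274, the ligand PD-L1, 5.73 ± 1.46 CPM with HMBA and 1.47 ± 0.128 CPM without. DTX3L, the partner of PARP9, averaged 2.93 ± 1.07 CPM with HMBA and 23.8 ± 6.41 CPM without.

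Of 16 antigen presentation genes, 14 were tested, and 9 (64.3%) passed and were higher, with a median log2 fold change of 0.56 over the 14. HLA-E averaged 301 ± 39.4 CPM with HMBA and 85 ± 10.5 CPM without (log2 fold change 1.84, SE 0.11, adjusted p = 2.06e-07). B2M, the light chain of class I molecules, averaged 646 ± 74.9 CPM with HMBA and 297 ± 11 CPM without. PSMB9, an immunoproteasome subunit, averaged 6.32 ± 1.63 CPM with HMBA and 3.28 ± 0.25 CPM without.

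Of 10 colon epithelial markers, 7 were tested, CDH1 rose and CDX2 and KRT18 fell with HMBA, and the list summed to 4590 to 7760 CPM with HMBA and 4470 to 5980 CPM without. CDX1, LGR5 and VIL1 did not pass the filter. Of 10 mesenchymal markers, 4 were tested and 3 rose (COL1A1, THY1 and ZEB1), with sums of 41.2 to 59.4 CPM with HMBA and 15.3 to 34.6 CPM without, and LUM at 0. Of 10 immune markers, 2 were tested and both rose, ITGAM and CD68, with sums of 25.9 to 38.7 CPM with HMBA and 10 to 21 CPM without, and CD3E, CD3D, MS4A1 and NKG7 at 0. The part of these markers in the results was not tested.

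The shNELFE libraries showed 1 call among the 35 genes. OASL was lower in shNELFE, where 2.37% of all genes tested passed (0.764% higher and 1.6% lower). OASL (chr12:121019111-121039242), an OAS relative that lacks the synthetase activity and acts with RIG-I, had 5.59, 3.8, 2.66, 3.73 and 3.49 CPM in shNELFE (both compounds replicates 1 and 2, HMBA, EPZ-5676, DMSO), against 9.39, 5.61, 11.9 and 10.3 CPM in shCTL (both compounds, HMBA, EPZ-5676, DMSO). The 2 groups did not overlap, with replicate 1 of shNELFE with both compounds at nearly the level of the shCTL HMBA library. OASL averaged 3.85 ± 1.07 CPM in shNELFE and 9.29 ± 2.66 CPM in shCTL (SD, n = 5 and 4), a log2 fold change of -1.26 ± 0.20 (SE) (adjusted p = 0.00904), and was lower in 4 of 4 pairs.

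The call of OASL was lost without the shNELFE DMSO library (adjusted p = 0.0626), without the shCTL EPZ-5676 library (adjusted p = 0.051), and in the 5 HMBA libraries alone, where 0 of these genes were called by edgeR and 5 had an unadjusted p under 0.05, where 0.0352% of all genes were called and 8.94% had such a p. Leaving out replicate 1 of shNELFE with both compounds raised the count to 10 called, 1 higher and 9 lower, where 13.1% of all genes passed. On library totals without scaling 3 were called (OASL, IFI35 and PARP9), where 2.82% of all genes passed. In the 4 libraries without HMBA, with 1 residual degree of freedom, 12 genes were called (1 higher and 11 lower), where 20.1% of all genes passed. Whether HMBA changes the response to shNELFE was tested by product terms, given after EPZ-5676.

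Most fitted effects of shNELFE on these genes were negative without passing. The fit gave 25 of the 35 genes a negative value, with a median log2 fold change of -0.23 against 0.01 over all genes. Lower values in 4 of 4 pairs were seen for 15, against 18% of all genes, and higher values in 4 of 4 pairs for 0, against 16.4%. At an unadjusted p under 0.05 there were 12 of 35, all lower, where 19.4% of all genes had such a p in either direction, among them IFI35, SAMD9 and PARP9. IFI35, a leucine zipper protein, averaged 3.57 ± 0.737 CPM in shNELFE and 6.04 ± 0.467 CPM in shCTL (SD, n = 5 and 4, adjusted p = 0.059). SAMD9 averaged 3.89 ± 2.48 CPM in shNELFE and 6.44 ± 2.88 CPM in shCTL (SD, n = 5 and 4, log2 fold change -0.62, SE 0.14, adjusted p = 0.0504). PARP9 averaged 10.3 ± 4.59 CPM in shNELFE and 16.2 ± 7.49 CPM in shCTL (SD, n = 5 and 4, log2 fold change -0.51, SE 0.14, adjusted p = 0.082). Means and SDs by shRNA or by EPZ-5676 pool libraries with and without HMBA in unequal shares, while the fitted values allow for HMBA. IFI35 and OASL were the 2 genes without overlap between shNELFE and shCTL libraries, against 3.17% of all genes. In the further lists the edgeR calls for shNELFE were all lower, where 1.6% of all genes tested were. Called were 1 of 14 adaptors, kinases and E3 ligases (NLRP1, log2 fold change -0.80, adjusted p = 0.0437) and 1 of 15 negative regulators (TRIM38, -0.64, adjusted p = 0.0488). So were 1 of 36 further interferon-stimulated genes (DTX3L, -0.71, adjusted p = 0.0172) and 1 of 14 antigen presentation genes (HLA-F, -0.93, adjusted p = 0.013). Among markers these were 1 of 2 immune (CD68, -0.73, adjusted p = 0.00447) and 1 of 4 mesenchymal (COL1A1, -0.69, adjusted p = 0.0376). Of 10 receptor and JAK-STAT genes and 7 colon epithelial markers, 0 were called. These calls were not followed through the alternatives.

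**Figure D3:**
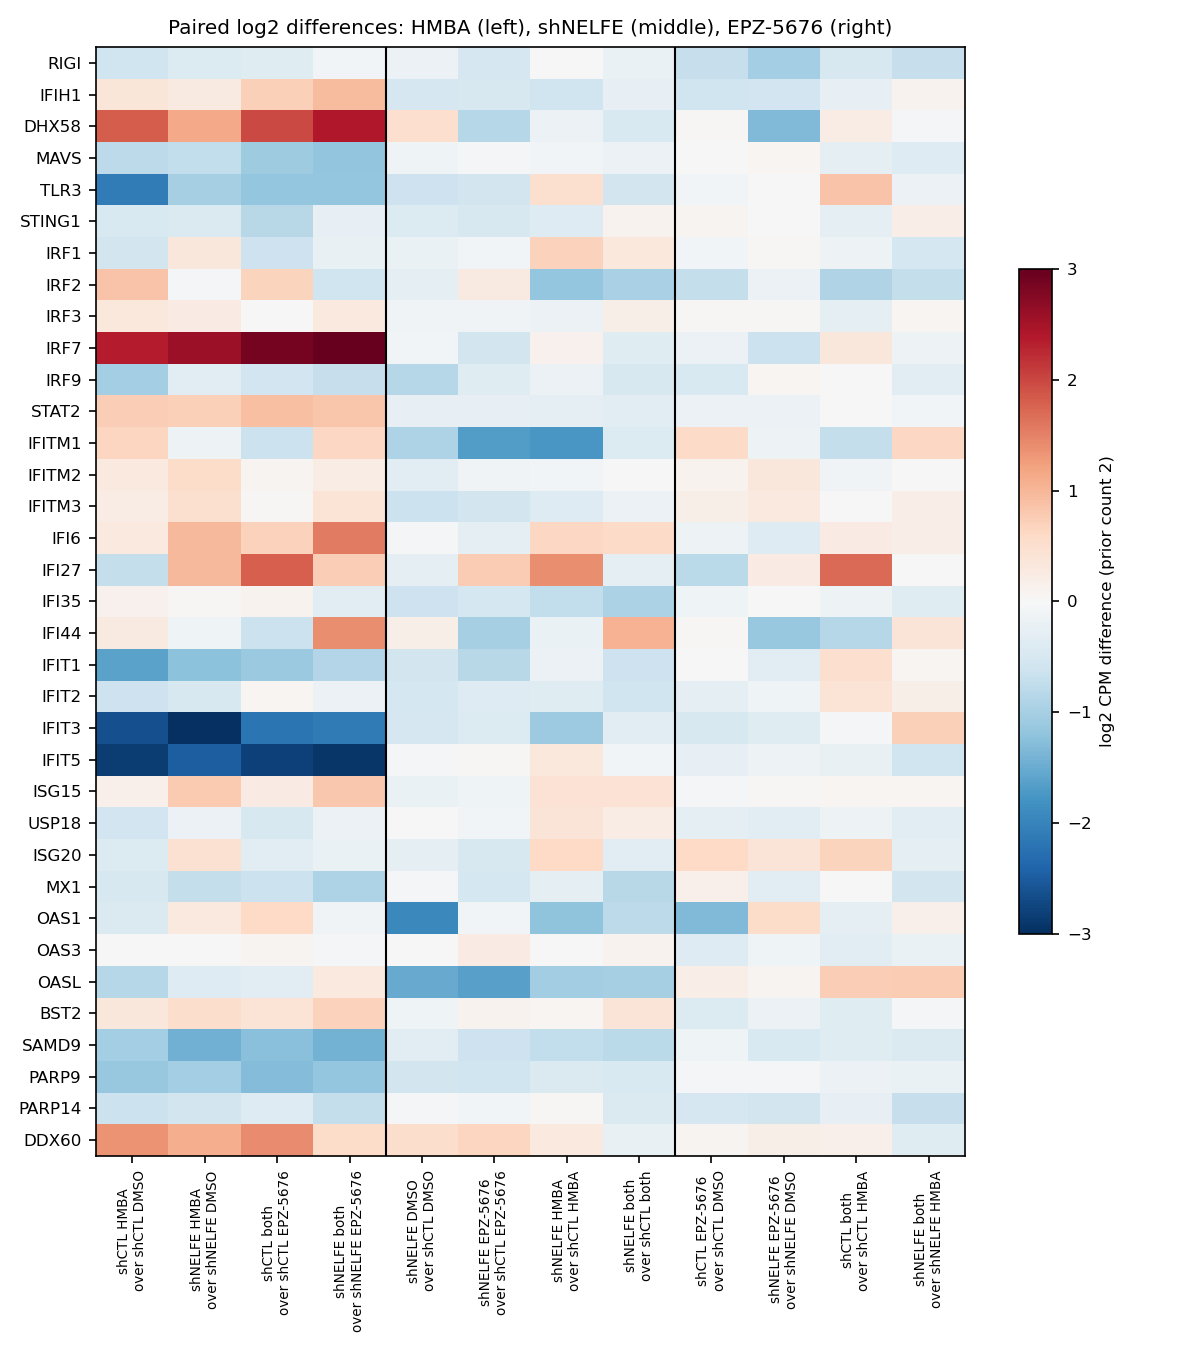
Differences in log2 CPM (colour, prior count 2) for the 35 tested genes (rows) between libraries or groups that differ in 1 factor, with 4 pairs each for HMBA, shNELFE and EPZ-5676 (columns). HMBA columns hold the strongest colours of either sign, and in the shNELFE columns 15 genes are below 0 in 4 of 4 pairs and 0 are above it in 4 of 4.

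EPZ-5676 also showed 1 call. RIGI was lower with EPZ-5676, where 0.201% of all genes tested passed (0.0671% higher and 0.134% lower). It had 7.37, 7.16, 8.36, 7.65 and 10.9 CPM with EPZ-5676 (shNELFE with both compounds replicates 1 and 2, shCTL with both compounds, shNELFE EPZ-5676, shCTL EPZ-5676), against 11.9, 11.7, 15.8 and 17.7 CPM without (shNELFE HMBA, shCTL HMBA, shNELFE DMSO, shCTL DMSO). The groups did not overlap, but the highest EPZ-5676 library and the lowest library without it were close. RIGI averaged 8.28 ± 1.52 CPM with EPZ-5676 and 14.3 ± 2.97 CPM without (SD, n = 5 and 4, log2 fold change -0.72, SE 0.12, adjusted p = 0.0465), and it was lower in 4 of 4 pairs.

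That call stood close to the threshold and was lost in 14 of 18 distinct alternatives, with adjusted p from 4.48e-10 to 1 over them. Among the libraries left out in turn, replicate 1 of shNELFE with both compounds was the only one whose absence kept it, and then 3 genes were called (RIGI, OAS3 and PARP14), where 3.8% of all genes passed. In the 4 libraries without HMBA, 6 genes were called (2 higher and 4 lower), where 15.3% of all genes passed, and in the 5 with HMBA 0 were called (edgeR, 3 with an unadjusted p under 0.05, which 3.09% of all genes had). PARP14 averaged 16.4 ± 4.39 CPM with EPZ-5676 and 24.7 ± 5.95 CPM without (SD, n = 5 and 4, log2 fold change -0.51, SE 0.11, adjusted p = 0.093). OAS3 averaged 41.7 ± 3.92 CPM with EPZ-5676 and 49.3 ± 0.331 CPM without (SD, n = 5 and 4, adjusted p = 0.323), with no overlap between the groups, as for RIGI, where 1.21% of all genes had none. Over the 35 genes the median log2 fold change was -0.17, against 0.02 over all genes, and 7 had an unadjusted p under 0.05, 6 of them lower, where 11.4% of all genes had such a p.

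**Figure D4:**
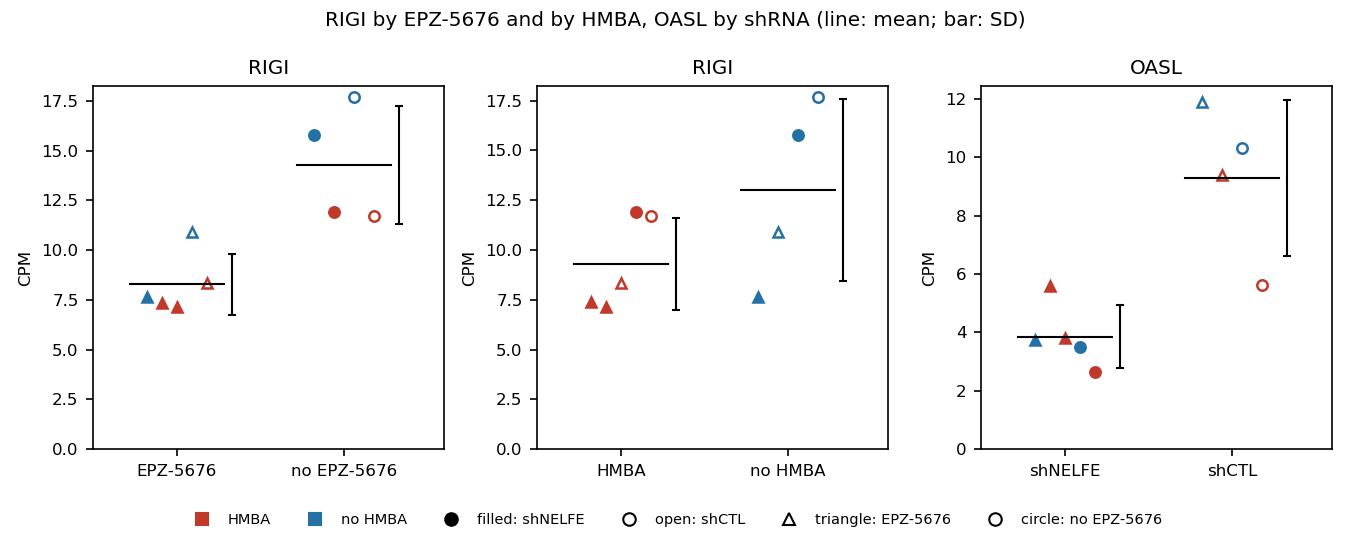
CPM (vertical axes, from 0) of RIGI by EPZ-5676 and by HMBA and of OASL by shRNA in the 9 libraries, with lines at the means and bars of 1 SD. RIGI is at 7.16 to 10.9 CPM with EPZ-5676 and 11.7 to 17.7 CPM without, and OASL at 2.66 to 5.59 CPM in shNELFE and 5.61 to 11.9 CPM in shCTL.

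Whether 1 factor changed the response to another was tested by product terms, each added alone. None of the 35 genes passed for HMBA and shNELFE, for HMBA and EPZ-5676, or for shNELFE and EPZ-5676, by edgeR, DESeq2 or limma-voom. Over all genes tested, edgeR and limma-voom each called 0.0134% for HMBA and shNELFE and 0% for the others. DESeq2 called 0.114% for HMBA and shNELFE, 0.00671% for HMBA and EPZ-5676 and 0.0201% for shNELFE and EPZ-5676. At an unadjusted p under 0.05 in edgeR the counts of these genes were 1, 0 and 0 in that order, where 4.18%, 2.58% and 0.764% of all genes had such a p. With 4 residual degrees of freedom this does not show that the responses were alike. The fall of IFIT5 was of similar size in all 4 HMBA pairs, at -2.92 to -2.47 on the log2 scale, and the rise of IRF7 was 2.35 to 3.05.

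The spread between libraries of 1 group could be read only from shNELFE with both compounds, whose 2 libraries had r = 0.982. Of the 35 genes, 15 differed by over 1.5-fold between replicates 1 and 2, with 12 above and 3 below in replicate 1, where 27.5% of all genes differed so (12.4% above and 15.1% below). The median absolute difference was 0.45 on the log2 scale for the 35 and 0.36 for all genes. ISG15 stood at 70.4 CPM in replicate 1 and 38.8 CPM in replicate 2, IFI6 at 13.9 and 6.94 CPM, STING1 at 17.6 and 7.74 CPM, and DDX60 at 11.5 and 22.1 CPM. For 4 of the 20 genes called for HMBA, the difference within this group was at least the size of the gene's own fitted HMBA effect, at 0.86 against 0.55 on the log2 scale for ISG15, 0.85 against 0.56 for BST2, 0.54 against 0.31 for IFITM2 and 0.99 against 0.99 for IFI6. For STING1, which was not called, it was 1.17 against -0.41, and for DDX60 -0.93 against 1.09.

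In the 7 libraries that stand apart, these genes took other levels. Of 273 values (39 genes in 7 libraries), 98 were above and 101 below the range of the 9, and 74 inside it, on CPM scaled over all 16 libraries. For 12 genes all 7 values were outside. CGAS was above in all 7, at 0.243 to 16.7 CPM against 0 to 0.156 CPM in the 9, and IFITM1 likewise at 3.47 to 29.6 CPM against 0.782 to 2.98 CPM. IFIT2, SAMD9 and DDX60 were below in all 7, DDX60 at 0.162 to 1.76 CPM against 6.52 to 21.8 CPM. ISG15 ran from 2.53 CPM in the library labelled shNELFE DMSO to 235 CPM in that labelled shCTL EPZ-5676, and BST2 from 0.632 to 166 CPM.

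Among the 7, libraries with different labels were close to each other. Pearson's r was 0.991 to 0.992 among the libraries labelled shNELFE HMBA, shNELFE EPZ-5676 and shCTL EPZ-5676, between those labelled shNELFE DMSO and shCTL HMBA, and between those labelled shCTL with both compounds and shCTL DMSO. With all 16 libraries, the 10 comparisons of group means called 0 of the 38 genes tested by edgeR, with 0 to 2 at an unadjusted p under 0.05 in each, where 0% of all genes passed in every comparison and 0.0624% to 3.84% had such a p. The additive model on all 16 also called 0, with 4 of these genes at an unadjusted p under 0.05 for HMBA, which 10.4% of all genes had.

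**Figure D5:**
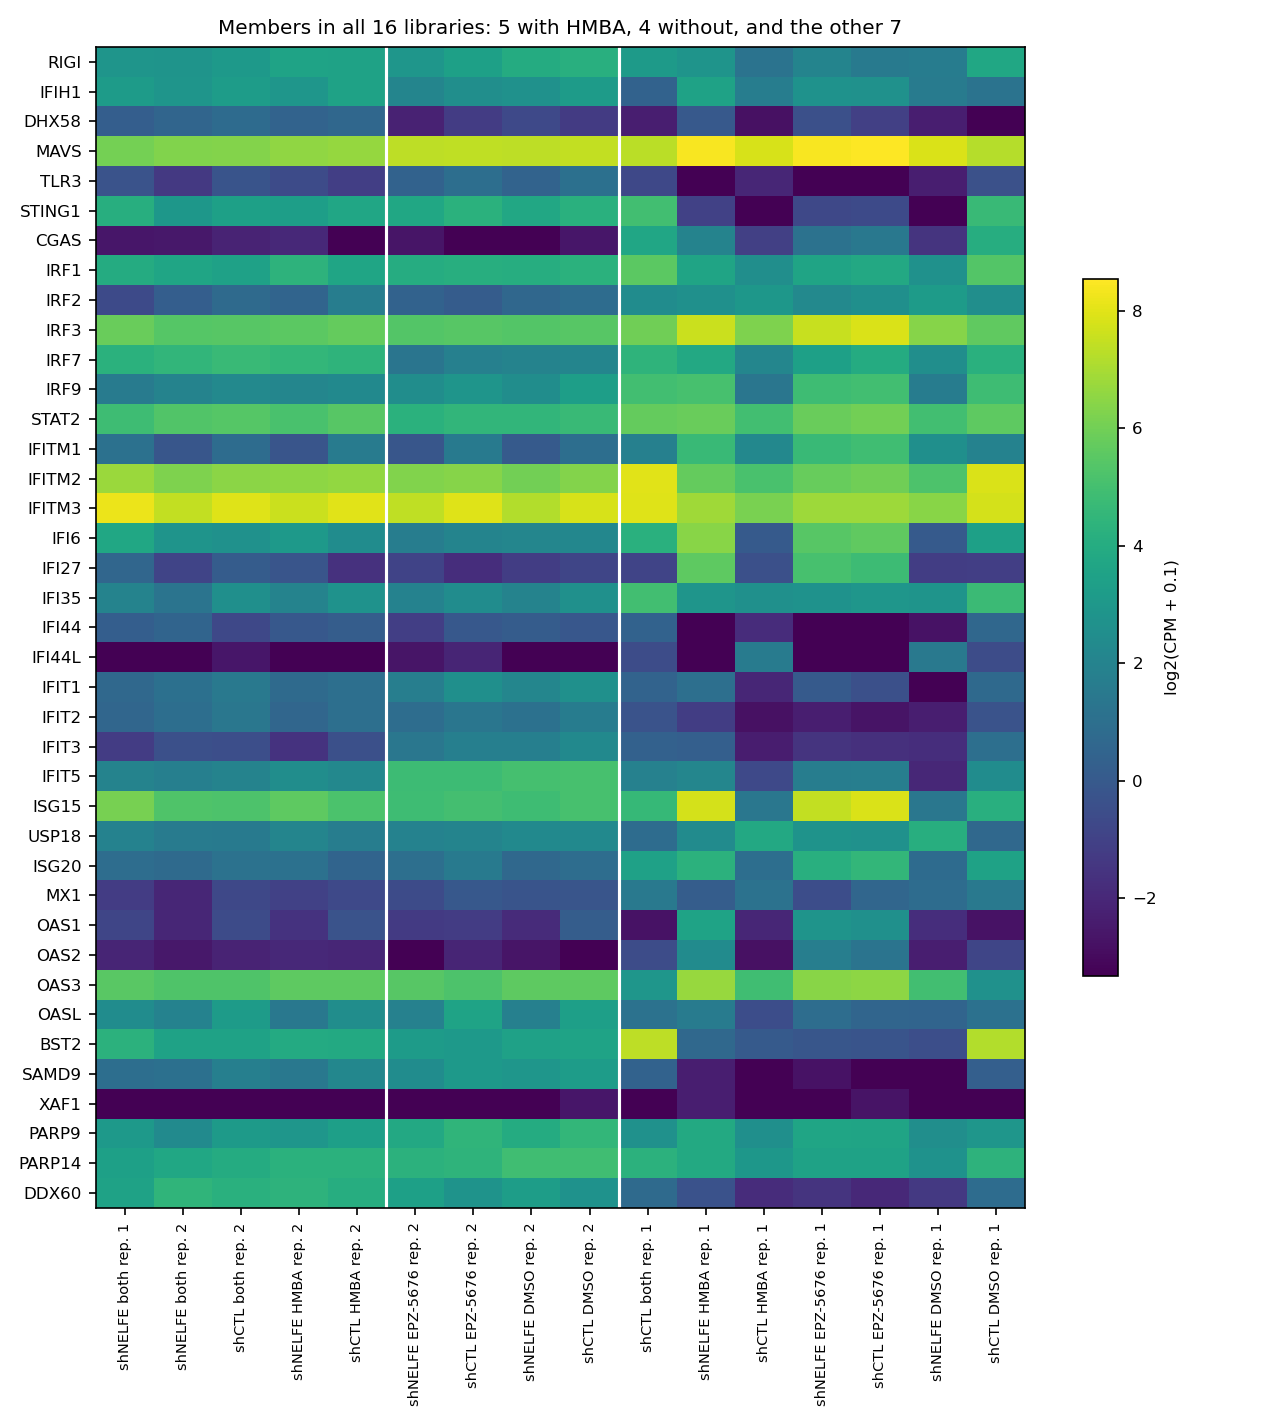
Levels of the 39 genes (rows) in all 16 libraries (columns) as log2(CPM + 0.1), CPM being scaled over the 16, with 5 HMBA libraries of the 9 on the left, the 4 without HMBA in the middle and the other 7 on the right. ISG15 runs from 2.53 to 235 CPM in the 7, and CGAS stands at 0.243 to 16.7 CPM in the 7 and at 0 to 0.156 CPM in the 9.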

How the data were processed

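The authors deposited 1 table of raw read counts, whole numbers per gene for 16 libraries, with no normalization. Per the labels' protocols, libraries came from a stranded, oligo(dT)-based TruSeq mRNA kit. The submitters' processing notes name STAR 2.4.0b, Cufflinks 2.1.1, HTSeq 0.6.1p1, edgeR and hg38, without roles; annotation release and strand setting were not given in the sources used here.

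Counts were scaled by TMM, filtered by filterByExpr and fitted in edgeR 4.0.16 (R 4.3.3) by the quasi-likelihood test, on the 9 libraries, with HMBA, shNELFE and EPZ-5676 as additive terms (14912 genes, 5 residual degrees of freedom). Product terms were each added alone. P-values were adjusted by Benjamini-Hochberg over all genes tested, with a threshold of 0.05. Printed CPM are TMM-scaled over the 9 libraries, except those of NELFE, HEXIM1 and the comparison with the 7 other libraries, which are scaled over all 16; floors use library totals. SE is the log2 fold change over the root of F. In the 9, 7 of 8 groups have 1 library, so the spread is pooled over the model and includes departures from additivity. The 10 comparisons of group means used all 16 libraries.

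Alternatives were RLE scaling, no scaling, no filter, DESeq2 1.42.0, limma-voom 3.58.1, the 8 libraries numbered 2, all 16 with and without a replicate block, subsets by HMBA, and each library left out. The scripts were tested on simulated counts with 200 changed genes. Of 1.5-fold changes 43.3% to 55.2% were called in the right direction, over the terms for HMBA, shNELFE and EPZ-5676. The shares were 70.1% to 85.1% for 2-fold and 95.5% to 98.5% for 4-fold changes. Far more genes than that were called for HMBA in the data, so these shares describe the simulated setting only. The text accounts for all 39 genes, giving values in every library for the largest called rises and falls, and names from each of 9 further lists at most the 3 largest called rises and falls. These lists were fitted with TMM scaling alone, and other genes named were chosen after their values were seen. Members and lists were chosen with earlier results of these data known. Intervals and floors cover counting error only.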

Additional observations from a re-analysis of the deposited data

How the results depend on the processing

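For HMBA, the number of these genes called was 20 as reported, where 63% of all genes passed. It was 19 to 24 under RLE scaling, no scaling, no filter, DESeq2, limma-voom and the 8 libraries numbered 2. Of all genes, 37.3% passed without the filter and 61.9% to 70.5% in the others of these settings. With each library left out in turn it was 15 to 24, where 54.4% to 70.5% of all genes passed. It was 0 with all 16 libraries, with or without a replicate block, where 0 of all genes were called too. For shNELFE, 1 of these genes and 353 of all genes were called as reported. The counts were 3 and 420 without scaling, 6 and 767 without the filter, 5 and 889 by DESeq2, 10 and 1940 in the 8 libraries numbered 2, 0 and 5 in the 5 libraries with HMBA, 12 and 2817 in the 4 without, 0 and 0 with all 16 with or without the block, and 0 to 10 and 66 to 1940 with each library left out. For EPZ-5676, 1 and 30 were called as reported, 0 and 29 under RLE scaling, 0 and 22 without scaling, 0 and 27 by limma-voom, 2 and 248 without the filter, 2 and 231 by DESeq2, 3 and 563 in the 8 libraries numbered 2, 0 and 0 in the 5 libraries with HMBA, 6 and 2141 in the 4 without, 0 and 0 with all 16 with or without the block, and 0 to 3 and 1 to 563 with each library left out. The product terms called 0 of these genes under every alternative, where 0 to 75 of all genes were called, at most 0.278%. Fewer libraries or fewer residual degrees of freedom are part of the subset alternatives; the cause of the other changes was not tested.

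Fitted HMBA effects (log2) were followed for all 35 genes. Without scaling they changed sign for IRF3 (-0.0211), IFITM1 (-0.0122), IFI35 (-0.26), OAS1 (-0.12) and OAS3 (-0.25), and without the filter for IFI35 (-0.00388). In the 8 libraries numbered 2 they did so for IFITM1 (-0.0229), IFI35 (-0.0492), OAS1 (-0.0949) and OAS3 (-0.0134). With each library left out, IFITM1 ran from -0.0229 to 0.52, IFI35 from -0.0492 to 0.11, OAS1 from -0.24 to 0.28 and OAS3 from -0.0169 to 0.0605. With all 16 libraries signs changed for ISG15 (-0.0550), IRF1 (0.0105), IRF2 (-0.35), IRF3 (-0.23), IFITM1 (-0.69), IFI27 (-0.51), IFI35 (-0.0306), IFIT2 (0.0148), OAS1 (-0.62) and OAS3 (-0.13). With the replicate block they changed for RIGI (0.00863), STING1 (0.15), IRF1 (3.69e-05), IRF2 (-0.0892), IRF3 (-0.11), IFITM1 (-0.33), IFI35 (-0.0336), IFIT2 (0.445), OAS1 (-0.27), OAS3 (-0.12) and OASL (0.18). The EPZ-5676 effect on OAS3 changed sign with all 16 libraries (0.0940) and with the block (0.0832). Replicate numbers share only a number by the labels. Differences of replicate 1 from replicate 2 correlated at 0.07 to 0.96 over 28 pairs of groups, 24 of them over 0.1. In every group but shNELFE with both compounds, replicate 1 is a library that stands apart. These correlations therefore cannot tell whether the numbers pair the samples. With the block, 0 of these genes were called in any of the 10 group comparisons, where 0 to 7 of all 17625 genes tested were. The 15 HMBA calls other than those of MX1, IFITM2, BST2, ISG15 and RIGI were lost in no alternative but the fits to all 16 libraries. Depth limits CGAS, OAS2, IFI44L and XAF1, at 1 to 12 counts over the 9 libraries.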
